A study of Mus musculus with 2 samples.

Results

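The chromatin contacts of 10 WNT receptor, inhibitor and effector genes were examined in hair matrix keratinocytes, the proliferating epithelium of the hair bulb, taken from mice at postnatal day 4.5. The genes were Lgr4, Lrp6, Fzd2, Dkk1, Sfrp1, Ctnnb1, Axin2, Lef1, Tcf7l1 and Tcf7l2, 10 of 21900 protein-coding genes in the RefSeq table of GRCm38.p6. Contacts came from Hi-C, in which DNA ends that are near each other in fixed nuclei are joined by ligation and read in pairs. There was 1 library from mice labelled Tet2/Tet3 DKO with Krt14-Cre (DKO), in which the 5-methylcytosine dioxygenases TET2 and TET3 are deleted by a Cre under the control of a basal keratin promoter, and 1 from mice labelled WT. Contacts do not measure transcripts, so neither the labelled cell type nor the deletion could be checked against expression. How many mice went into each library is not stated in the labels.

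Each library was represented by its list of enriched pixels, each pixel pairing 5 kb bins (its anchors) whose observed contact count exceeded what 4 surrounding neighbourhoods predicted. A pixel was assigned to a gene where an anchor bin lay within 10 kb of either annotated end of the gene. The DKO list held 4872 pixels and the WT list 5811, with a median of 18 observed contacts per pixel in each. Expected counts at the 1940 pixels listed in both libraries at the same bins had a median DKO/WT ratio of 0.973, and enrichment there had a median DKO/WT ratio of 0.983 (quartiles 0.841 and 1.15). Pixels that were not called carry no recorded count, so a gene without a pixel in a list has no value there. With 1 library per genotype no difference was tested. Intervals in brackets are exact 95% intervals, Poisson for enrichment, conditional binomial for ratios and Clopper-Pearson for shares, and cover counting error only.

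In canonical WNT signalling a secreted ligand binds a Frizzled receptor and an LRP5 or LRP6 co-receptor, which stops the destruction complex built on AXIN proteins from degrading β-catenin. β-catenin then enters the nucleus and acts with the DNA-binding factors LEF1, TCF7, TCF7L1 and TCF7L2. Secreted antagonists of the DKK and SFRP families limit the signal, and in the hair follicle WNT signalling is known for its part in placode formation and in the differentiation of matrix cells into the hair shaft.

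Listed anchors came close to the annotated transcription starts of Axin2 and Tcf7l1, whose starts lay inside an anchor bin, and of Dkk1 and Ctnnb1, whose starts lay 505 and 1601 bp outside it. The promoters of these genes, from 250 bases before to 50 bases after the start, are shown 5′ to 3′ from RefSeq on GRCm38.p6 because their starts lie in or near those anchors. For Ctnnb1 the window at the annotated gene start is shown, and the table holds a second Ctnnb1 start 1423 bp from the anchor. For Axin2 the start is that of the promoter table, and the annotated gene start lay 2173 bp outside the DKO anchor bin. Capitals mark CTTTGAA or CTTTGAT, the letters of a TCF/LEF core, and CCCTC, which occurs within the CTCF motif, on either strand and with overlaps kept.
Axin2 (chr11:108920099-108920398, plus strand): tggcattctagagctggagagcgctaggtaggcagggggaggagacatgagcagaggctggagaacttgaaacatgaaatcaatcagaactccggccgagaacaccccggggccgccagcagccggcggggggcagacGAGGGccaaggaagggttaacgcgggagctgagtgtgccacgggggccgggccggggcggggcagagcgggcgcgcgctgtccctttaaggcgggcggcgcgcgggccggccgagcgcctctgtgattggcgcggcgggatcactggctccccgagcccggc
Tcf7l1 (chr6:72788996-72789295, minus strand): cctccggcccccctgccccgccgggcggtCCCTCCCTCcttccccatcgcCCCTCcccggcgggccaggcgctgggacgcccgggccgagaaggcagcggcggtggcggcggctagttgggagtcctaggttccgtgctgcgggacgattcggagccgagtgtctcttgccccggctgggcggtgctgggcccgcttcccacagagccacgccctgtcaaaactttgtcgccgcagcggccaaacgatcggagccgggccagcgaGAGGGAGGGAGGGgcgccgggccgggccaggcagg
Dkk1 (chr19:30549447-30549746, minus strand): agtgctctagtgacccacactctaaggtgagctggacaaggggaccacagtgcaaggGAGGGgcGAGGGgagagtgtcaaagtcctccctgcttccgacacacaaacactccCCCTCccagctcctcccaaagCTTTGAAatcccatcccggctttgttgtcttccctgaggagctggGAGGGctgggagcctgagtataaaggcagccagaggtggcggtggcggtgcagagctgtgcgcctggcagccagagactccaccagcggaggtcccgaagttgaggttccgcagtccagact
Ctnnb1 (chr9:120933150-120933449, plus strand): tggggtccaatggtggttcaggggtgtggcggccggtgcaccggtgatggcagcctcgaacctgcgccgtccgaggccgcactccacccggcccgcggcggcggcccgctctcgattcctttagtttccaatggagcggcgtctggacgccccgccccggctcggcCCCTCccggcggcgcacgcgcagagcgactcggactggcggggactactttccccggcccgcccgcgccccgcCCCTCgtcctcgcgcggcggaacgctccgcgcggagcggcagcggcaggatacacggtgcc
The Dkk1 promoter held 1 TCF/LEF match, on its own strand, and the Axin2, Tcf7l1 and Ctnnb1 windows held 0. Of the 32851 promoters in the RefSeq table, 8.65% held at least 1 such match on either strand. CCCTC occurred once in the Axin2 window, where the reverse strand holds it, 6 times in that of Tcf7l1, 4 times in that of Dkk1 and 2 times in that of Ctnnb1. Of all the promoters 66.0% held CCCTC, so a match was the common case. CG dinucleotides, the sites at which TET enzymes act on methylated cytosine, numbered 31 in the Axin2 window, 34 in that of Tcf7l1, 9 in that of Dkk1 and 46 in that of Ctnnb1, against a median of 7 (quartiles 3 and 20) over all promoters. The window of the second Ctnnb1 start held 51. Dkk1 thus fell between the quartiles and the other windows shown above the upper one. The window of Lgr4, whose start lay 7647 bp from an anchor bin in both lists, is not shown. It held 18 CG, also between the quartiles, with 0 TCF/LEF matches and 0 CCCTC. The table matched 7 of the 10 genes, with no entry for Fzd2, Lrp6 and Sfrp1. A match of letters is not evidence that a factor binds there.

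In the DKO list 5 of the 10 genes had a pixel, and in the WT list 4 of the 10. Over all protein-coding genes the same rule called 20.1% in the DKO list and 21.2% in the WT list. Axin2, Tcf7l1 and Lgr4 had pixels in both lists, as did 12.9% of all genes. Dkk1 and Fzd2 had one in the DKO list alone (7.13% of all genes) and Ctnnb1 in the WT list alone (8.23%). Lrp6, Sfrp1, Lef1 and Tcf7l2 had none in either. The genes had been chosen with earlier results of these libraries known, so the higher share among them, 6 of 10 in either list against 28.3% of all genes, is a description of the choice. There were 7 DKO pixels, forming 5 contacts when neighbouring pixels were joined, and 8 WT pixels forming 6.

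**Figure D1:**
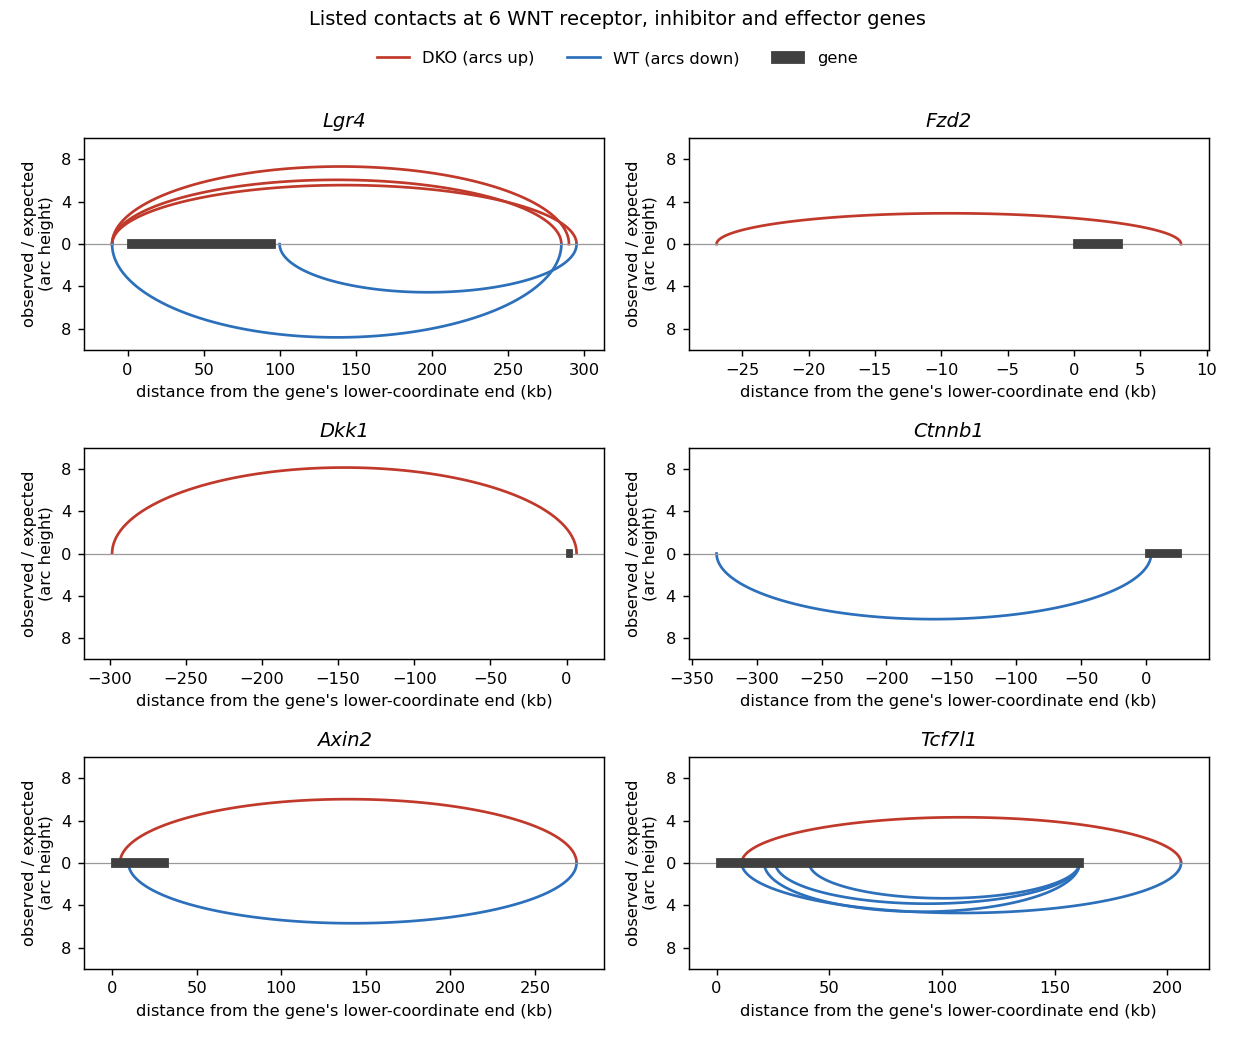
Contacts at the 6 genes with a listed pixel, drawn as arcs between the centres of their 5 kb anchor bins against distance from the lower-coordinate end of the gene (kb), DKO upward and WT downward, with arc height equal to observed over donut expected contacts. Arcs of both libraries share their ends at Lgr4 (295 kb) and Tcf7l1 (195 kb) and nearly so at Axin2, while Dkk1 and Fzd2 have a DKO arc and Ctnnb1 a WT arc without a partner.

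Among the receptors, Lgr4 (chromosome 2, 109917647 to 110014257), which encodes a receptor for R-spondins that amplifies WNT signalling, had a contact with a low false discovery rate (FDR) in both libraries (largest over the neighbourhoods 0.000749 in DKO and 0.000234 in WT). It ran over 295 kb from the bin 109905001 to 109910000, which lies 7.65 kb before the start of Lgr4, to the bin 110200001 to 110205000. This pixel had 18 contacts in DKO, 6.07 times the donut expected count (3.60 to 9.60), and 23 contacts in WT, 8.81 times (5.58 to 13.2). The DKO/WT ratio of enrichment was 0.689 (0.350 to 1.33), an interval that includes 1. Against the 4 neighbourhoods the enrichment ranged between 4.73 and 6.07 in DKO and between 4.18 and 8.81 in WT, so the WT range enclosed that of DKO.

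The DKO list held 2 more pixels of the same Lgr4 contact, shifted by 5 and 10 kb at the far anchor, with 18 contacts (7.33 times, 4.35 to 11.6) and 16 contacts (5.57 times, 3.18 to 9.04). The WT list held none of these neighbours, and instead a separate 195 kb pixel from the far end of Lgr4 (bin 110015001 to 110020000, 0.744 kb past it) to the bin 110210001 to 110215000, with 15 contacts at 4.55 times expected (2.54 to 7.50). That far bin was also the anchor of the third DKO pixel, so in the WT list it met the 3′ end of Lgr4 and in the DKO list the region before its 5′ end. The third DKO pixel nonetheless had the 295 kb WT pixel within 2 bins, so the WT list also held the contact from the 5′ side. The WT pixel at the 3′ end had a largest FDR of 0.0786. The far anchors lay between Ccdc34 and Bbox1, from 24.3 to 34.3 kb beyond the nearest gene end, that of Ccdc34. The bin before Lgr4 was nearer to Lin7c, which encodes a scaffold protein (4.06 kb), than to Lgr4, and the WT bin at its 3′ end held an end of Ccdc34. The contacts can therefore not be assigned to Lgr4 in preference to these neighbours.

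Fzd2 (chromosome 11, 102604431 to 102608058), a Frizzled receptor gene, had 1 pixel, listed in DKO and without a WT counterpart. The DKO pixel spanned 35 kb, equal to the shortest span in either list, and joined the bin 102610001 to 102615000, which starts 1.94 kb past the gene, to the bin 102575001 to 102580000. It had 21 contacts at 2.91 times expected (1.80 to 4.45), and only 3.14% of DKO pixels had a lower enrichment. Its lower anchor was also used by pixels listed in both libraries that enclose Fzd2 without ending at it, the higher of which, to the bin starting at 102650001, stood at 4.87 times in DKO (3.18 to 7.14) and 4.33 times in WT (2.78 to 6.45). The strongest pixel of that contact used the bin next to the shared one and joined 102570001 to 102575000 to the bin 102650001 to 102655000, with 30 contacts in DKO (8.25 times, 5.56 to 11.8) and 32 contacts in WT (7.16 times, 4.90 to 10.1). Its DKO/WT ratio was 1.15 (0.676 to 1.96). Fzd2 thus lay inside a contact of 80 kb seen in both libraries, whose upper anchor lay 10.4 kb from Meioc, and the other 3 enclosing pixels listed at the same bins in both had ratios between 1.05 and 1.12.

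Lrp6 (chromosome 6, 134446476 to 134566913), the WNT co-receptor, had no pixel within 10 kb of its ends. It was enclosed by a 190 kb contact listed at the same bins in both libraries, from 134425001 to 134430000, 16.5 kb outside the gene, to 134615001 to 134620000. This pixel had 17 contacts in DKO (5.25 times, 3.06 to 8.40) and 19 contacts in WT (4.14 times, 2.49 to 6.46), with a ratio of 1.27 (0.619 to 2.58). Its largest FDR was 0.0154 in DKO and 0.0819 in WT, so the WT call was weak. Its anchors lay nearer to Bcl2l14 (8.72 kb) and Mansc1 (5.79 kb) than to Lrp6.

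**Figure D2:**
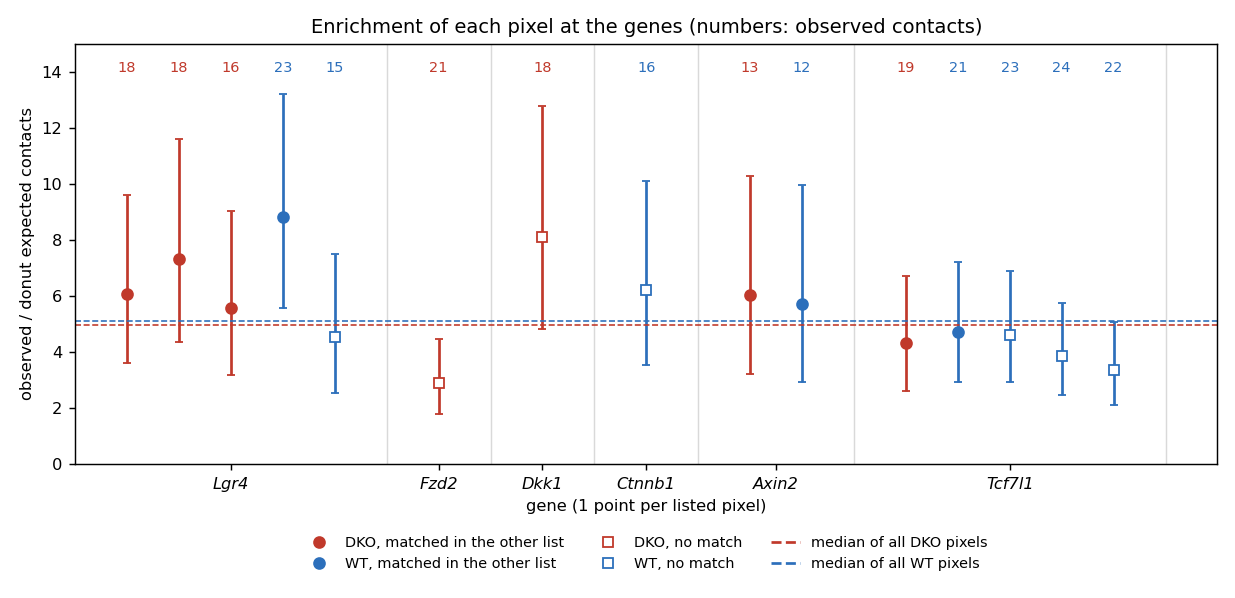
Observed over donut expected contacts for each listed pixel, with exact 95% Poisson intervals, grouped by gene with DKO left of WT and the observed count printed above. Filled circles have a pixel of the other list within 2 bins at both anchors and open squares have none, and every interval at a gene overlaps the others at that gene. Dashed lines are the medians over all pixels, 4.95 in DKO and 5.11 in WT.

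Of the secreted inhibitors, Dkk1 (chromosome 19, 30545876 to 30549496), an antagonist that binds LRP5 and LRP6, had the highest enrichment of the DKO pixels at these genes. The pixel spanned 305 kb, from the bin 30550001 to 30555000, which starts 0.505 kb before the 5′ end of the gene, to the bin 30245001 to 30250000. It had 18 contacts at 8.12 times the donut expected count (4.81 to 12.8), and between 5.23 and 11.6 times against the 4 neighbourhoods. Its largest FDR was 0.000749, and 91.0% of DKO pixels had a lower enrichment. The far anchor lay 5.31 kb from Mbl2, the gene of a mannose-binding lectin of serum. The WT list had no pixel near it: its nearest anchor to Dkk1 lay 1291 kb away, in a contact that does not reach the gene. Whether WT contacts at this pair of bins were fewer or missed a threshold cannot be read from the list.

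Sfrp1 (chromosome 8, 23411383 to 23449632), a secreted Frizzled-related inhibitor, had no pixel by the 10 kb rule. The WT list held a 55 kb pixel with 1 anchor inside the gene, 13.6 kb from its lower end, and the other beyond it (23480001 to 23485000), with 12 contacts at 3.90 times expected (2.01 to 6.81). Its largest FDR, 0.0999, was at the limit of the list. The nearest DKO anchor lay 546 kb from Sfrp1.

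Among the effectors, Ctnnb1 (chromosome 9, 120933400 to 120960507), which encodes β-catenin, had no pixel in the DKO list and 1 in the WT list. The WT pixel spanned 335 kb, from the bin 120935001 to 120940000 inside the gene, 1.60 kb past its start, to the bin 120600001 to 120605000. It had 16 contacts at 6.20 times expected (3.55 to 10.1), between 3.52 and 8.93 times against the 4 neighbourhoods, and a largest FDR of 0.0342. The far anchor held no gene end within 10 kb, and the nearest was that of Rpl14, a ribosomal protein gene, 25.3 kb away. The nearest DKO anchor to Ctnnb1 lay 284 kb away.

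Axin2 (chromosome 11, 108917828 to 108950783), a scaffold of the destruction complex and itself a WNT target gene, had 1 pixel in each list, and they were neighbours. In DKO the bin 108920001 to 108925000, which contains the transcription start in the RefSeq promoter table, met the bin 109190001 to 109195000 with 13 contacts at 6.02 times expected (3.20 to 10.3). In WT the next bin, 108925001 to 108930000, met the same far bin with 12 contacts at 5.70 times expected (2.94 to 9.95). The DKO pixel spanned 270 kb and the WT pixel 265 kb, and their intervals overlapped almost entirely. Both calls were weak, with a largest FDR of 0.0439 in DKO and 0.0999 in WT. The far anchor was not near a gene end, the closest being that of Rgs9, a regulator of G protein signalling, 30.3 kb away, and no other pixel of either list used that bin.

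Lef1 (chromosome 3, 131110297 to 131224357), the TCF/LEF factor of the hair shaft precursors, lay just outside the rule. The WT list held 3 neighbouring pixels over 520 to 530 kb that enclose the gene, the nearest anchor 10.6 kb past its 3′ end. The strongest, from 130710001 to 130715000 to 131235001 to 131240000, had 24 contacts at 7.73 times expected (4.95 to 11.5) and a largest FDR of 3.19e-06. Its anchors lay nearest to Ostc (0.557 kb), which encodes an oligosaccharyltransferase subunit, and Hadh (1.58 kb), which encodes a mitochondrial dehydrogenase of fatty acid oxidation. The nearest DKO anchor to Lef1 lay 95.6 kb away. On the other side of the 10 kb limit, Tcf7l1 with anchors 8.63 kb away and Lgr4 with anchors 7.65 kb away entered the DKO list through the contacts it shares with WT.

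Tcf7l1 (chromosome 6, 72626371 to 72789045, minus strand), which encodes a TCF factor known mainly as a repressor of WNT targets, had 1 DKO and 4 WT pixels. The contact listed in both ran over 195 kb from the bin 72635001 to 72640000, near the 3′ end, to the bin 72830001 to 72835000, which is 6.11 kb from Kcmf1, a ubiquitin ligase gene. It had 19 contacts in DKO (4.31 times, 2.60 to 6.73) and 21 contacts in WT (4.73 times, 2.93 to 7.23), and the DKO/WT ratio was 0.912 (0.464 to 1.78). The 2 libraries therefore gave values that overlap at this pixel.

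The other 3 WT pixels of Tcf7l1 formed 1 contact within the gene and had no DKO counterpart. All had 1 anchor in the bin 72785001 to 72790000, which holds the transcription start, and the others at bins starting at 72645001, 72650001 and 72665001, toward the 3′ end. The first had 23 contacts at 4.61 times expected (2.92 to 6.91), the second 24 contacts at 3.85 times (2.47 to 5.74) and the third 22 contacts at 3.34 times (2.10 to 5.06). The spans were 140, 135 and 120 kb, and the largest FDRs 0.00345, 0.00144 and 0.0694. The Tcf7l1 promoter is thus the 1 promoter among those shown that a WT anchor bin contains, and that of Axin2 the 1 that a DKO anchor bin contains.

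Tcf7l2 (chromosome 19, 55741797 to 55933659), the remaining TCF factor, stood apart from all listed contacts. The nearest anchor lay 981 kb away in the DKO list and 491 kb away in the WT list, and no pixel of either list enclosed the gene.

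**Figure D3:**
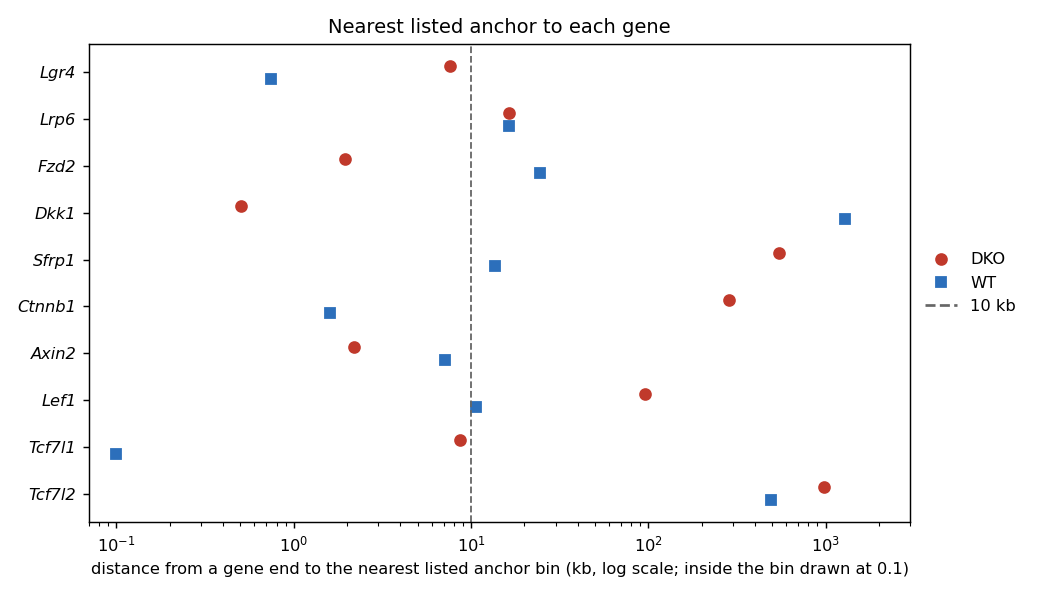
Distance from the nearer gene end to the nearest listed anchor bin (kb, log scale) for each of the 10 genes, DKO as circles and WT as squares, with the 10 kb limit dashed. Lrp6 lies at 16.5 kb in both lists, the DKO point of Lef1 at 95.6 kb and its WT point at 10.6 kb, and Tcf7l2 at 981 kb in DKO and 491 kb in WT.

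Taking the genes as a group, median enrichment was 6.02 times expected over the 7 DKO pixels and 4.67 over the 8 WT pixels, against medians over all pixels of 4.95 (quartiles 4.0 and 6.23) in DKO and 5.11 (4.15 and 6.37) in WT. The pixels ranged between 2.91 and 8.12 in DKO and between 3.34 and 8.81 in WT, so the groups overlapped. Pixels that share an anchor are not independent of each other: the 7 DKO pixels include 3 of the Lgr4 contact and the 8 WT pixels 3 of the Tcf7l1 contact. The median span was 295 kb in DKO and 195 kb in WT, against 100 kb over all DKO pixels and 115 kb over all WT pixels. Of the DKO pixels 5 of 7 (71.4%, 29.0 to 96.3) had a pixel of the other list within 2 bins at both anchors, against 70.5% of all DKO pixels. Of the WT pixels 3 of 8 (37.5%, 8.52 to 75.5) had one, against 67.6% of all WT pixels, and 3 of the 5 without belonged to the Tcf7l1 contact. Counted by contact, 3 of 5 in DKO and 3 of 6 in WT had a matched pixel. That share was not computed over all contacts of the lists, so whether these counts are usual cannot be told. Of the 5 matched DKO pixels, 3 were of the Lgr4 contact. At an FDR under 0.01 in all neighbourhoods, 4 DKO pixels were left, at Dkk1 and Lgr4, and 3 WT pixels, at Tcf7l1 and Lgr4. These were 57.1% of the DKO and 37.5% of the WT pixels at the genes, against 41.3% and 43.0% of all pixels. The Axin2, Fzd2 and Ctnnb1 calls were lost. The 195 kb Tcf7l1 contact was lost from both lists (largest FDR 0.0172 in DKO and 0.0199 in WT), as was the 195 kb WT pixel at the 3′ end of Lgr4 (0.0786). The Lgr4 contact of 295 kb was the 1 contact of these genes left in both. A gene end inside the anchor bin left no DKO pixel and the 3 WT pixels at the Tcf7l1 promoter.

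Of 58 other genes of WNT reception, inhibition and transduction, 15 had a pixel in the DKO list and 13 in the WT list, 12 of them in both. The same rule called 20.1% of all protein-coding genes in DKO, 21.2% in WT and 12.9% in both. These 58 genes were also chosen with earlier results known. The share with a pixel in either list, 27.6%, was close to the 28.3% of all protein-coding genes. Sost, which encodes sclerostin, an inhibitor that binds LRP5 and LRP6, had the most, 6 DKO and 10 WT pixels of 1 contact in each, all with a counterpart. Its highest pixel by observed count had 40 contacts in DKO (5.88 times, 4.20 to 8.01) and 35 contacts in WT (6.81 times, 4.74 to 9.47). Among receptors, Ror2, a receptor tyrosine kinase for WNT5A, had 5 DKO and 8 WT pixels, the highest with 26 contacts in DKO (7.33 times, 4.79 to 10.7) and 28 contacts in WT (7.26 times, 4.82 to 10.5), and 3 of the 5 DKO and 5 of the 8 WT pixels were matched. Its paralogue Ror1 had 1 pixel of 310 kb in each, at 6.64 times expected in DKO (3.53 to 11.3) and 6.64 times in WT (3.63 to 11.1), matched to each other. Lgr6, an R-spondin receptor related to Lgr4, had 4 DKO and 6 WT pixels of 1 contact, all matched, with 27 contacts in DKO (4.83 times, 3.18 to 7.03) and 25 contacts in WT (4.42 times, 2.86 to 6.52) at the highest. The highest pixel is here the one with the most observed contacts in a library, not the most enriched. At Sost it spanned 45 kb in DKO and 50 kb in WT. At Ror2 it spanned 245 kb in DKO and 240 kb in WT, so at these genes the bins differed. At each of these 4 genes the highest pixels of the libraries had overlapping intervals.

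Znrf3, a ubiquitin ligase that removes Frizzled receptors, had 2 DKO pixels and 1 WT pixel of 185 to 190 kb, all matched. Tnks, a tankyrase that destabilises AXIN, had 3 DKO and 2 WT pixels, all matched. Gsk3a, a kinase that phosphorylates β-catenin, had 2 DKO pixels, both matched, and 3 WT pixels, 2 of them matched, and Nkd1, an inhibitor that binds Dishevelled, had 1 in each without a match. In the nucleus, Tcf7 had 1 DKO pixel, which was matched, and 3 WT pixels, of which 2 were. The corepressor gene Tle2 had 2 in each, all matched. The β-catenin coactivator genes Bcl9 and Bcl9l had 1 and 4 DKO pixels and 2 and 2 WT pixels. No Bcl9 pixel was matched, while 3 of the 4 DKO and both WT pixels of Bcl9l were. Genes in a single list were Tle3, Dvl2 and Fzd9 in DKO (3 of 58, against 7.13% of all genes) and Rnf43 in WT (1 of 58, against 8.23%). The Dvl2 pixel itself had a WT pixel within 2 bins, so the difference there lay in the reach of the pixel to the gene end.

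**Figure D4:**
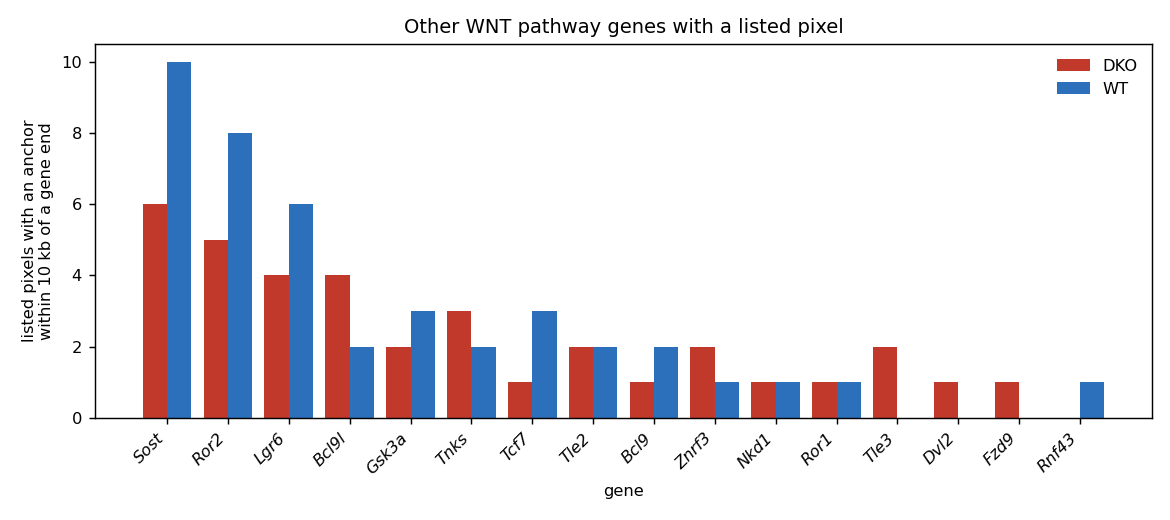
Number of listed pixels with an anchor within 10 kb of a gene end, for the 16 of 58 other WNT pathway genes with at least 1, DKO bars left of WT bars. Sost (6 in DKO and 10 in WT) and Ror2 (5 and 8) have the most, and 4 genes have pixels in 1 list.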

How the data were processed

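Hi-C libraries of DKO and WT hair matrix keratinocytes, 1 each, were analysed from the authors' deposited pixel lists. Per the file headers they come from juicer_tools 1.22.01. The submitters' processing notes name Juicer and the build GRCm38, also called mm10. Read numbers and aligner: not given in the sources used here. Each observed count was deposited without normalisation. Its 4 expected contact counts were deposited as a signal on the same scale. The deposited q-values (FDR) were all under 0.1. A deposited score numbers classes of expected counts and was not used. The sum of observed counts was 95103 over the DKO list and 113348 over the WT list, which is not a sequencing depth.

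Enrichment is the observed count over the donut expected count. Pixels were joined into contacts where both anchors lay within 20 kb, and matched across lists within 2 bins at both anchors. Gene ends came from RefSeq GRCm38.p6 and coordinates are 1-based. Expected counts were taken as fixed. The genes and the list of 58 others were chosen with earlier results of these data known. Other pathway genes with a pixel were named, up to 12, by pixel number, with ties in alphabetical order. Those in a single list, and neighbours of anchors over 10 kb away, were named after their values were seen. Search was tested with bins planted near gene starts, matching with WT pixels shifted by known numbers of bins, and the ratio interval on simulated counts. Poisson intervals were not part of these tests. Python 3.11.15, pandas 2.3.3 and scipy 1.17.1 were used.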

Additional observations from a re-analysis of the deposited data

How the results depend on the processing

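No paired analysis was possible because there is a single library of each genotype, which also leaves no replicate to omit. With gene ends within 5 kb, 3 genes had 3 DKO pixels, 1 of them matched, and WT had 5 pixels, 0 matched. With gene ends inside the anchor bin, DKO had 0 genes, 0 pixels and 0 matched, and WT 1 gene, 3 pixels and 0 matched. Within 20 kb, WT had 7 genes and 14 pixels. With transcription starts alone, 3 genes had DKO pixels. Fzd2, which had 1 DKO pixel by the main rule, could not be counted there, having no start among the RefSeq promoters. Tcf7l1 has a start there, but the nearest anchor of its DKO pixel lay 40956 bp from it, so that pixel was lost. At an FDR under 0.01, 2 genes had 4 DKO pixels, 3 matched, and 2 genes had 3 WT pixels, 1 matched. With at least 20 observed contacts, 1 gene had 1 DKO pixel, 0 matched, and median enrichment was 2.91 in DKO, while 2 genes had 5 WT pixels, 0 matched. For the FDR and count cutoffs both lists were cut before matching. The shared pixels had 19 contacts in DKO and 21 in WT at Tcf7l1, and 18 and 23 at Lgr4, so the count cutoff removed their DKO side alone. Matching at the same bins left 2 DKO pixels matched. In these cases fewer or more pixels entered by construction. The other 46 values of these summaries stayed within 1.5 times, or within their interval. For a median, that interval was taken from its middle pixel or pixels and is wide. WT median enrichment thus counted as unchanged at 3.48 with vertical expected counts, against 4.67 with the donut. The median DKO/WT ratio at the 2 pixels listed in both was 0.801 with the donut, 0.751 with the bottom-left, 1.16 with the horizontal and 1.01 with the vertical expected counts, so its direction depends on the neighbourhood. It had no value with gene ends within 5 kb or inside the bin, or with at least 20 contacts. Anchors overlapping the gene body, an alternative chosen after seeing the data, added Sfrp1 to the WT list. Counts of 12 to 24 contacts set the width of the intervals of pixels at the 10 genes.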

Other observations

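The bin next to the one used by the shared Lgr4 contact, 109900001 to 109905000, held an end of Lin7c and had a WT pixel of 665 kb to the bin 110565001 to 110570000. It lay 12.6 kb from Lgr4, outside the 10 kb rule. It had 12 contacts on an expected count of 0.763, an enrichment of 15.7 (8.13 to 27.5) and a largest FDR of 0.0640, and no DKO pixel lay within 2 bins of it. Its neighbourhood held under 1 expected contact, so the ratio rests on few contacts.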
